A study of Mus musculus with 9 samples.

Results

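The BCL2 family decides whether a cell keeps its mitochondria intact or dies by apoptosis. The 10 genes described here were taken by symbol from a count table of 55011 genes. They are the pro-survival genes Bcl2, Bcl2l1 (BCL-XL), Mcl1, Bcl2a1b and Bcl2a1d (A1), the BH3-only genes Bcl2l11 (BIM), Bbc3 (PUMA) and Pmaip1 (NOXA), and the effectors Bax and Bak1. All 10 were in the table, and 8 passed the filter on low counts; Bbc3 and Bak1 did not. Naive CD8 T cells from the spleen of wild-type mice were stimulated for 6 h with 4 µg/mL of plate-bound antibodies to CD3 and CD28. D-2HG cells received 20 mM of the D form of 2-hydroxyglutarate with the stimulus, L-2HG cells received 20 mM of its mirror image, the L form, and control cells received neither. Each group had 3 libraries of poly(A) RNA, and the stimulus was common to all of them. Whether the libraries of a group stem from different mice or wells is not stated, so each p-value reflects library-to-library spread that may be technical.

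In the mitochondrial pathway of apoptosis, BAX and BAK open the outer mitochondrial membrane and release cytochrome c. Pro-survival proteins hold them back, and BH3-only proteins free or activate them by placing a short helix, the BH3 region, in a groove of their partners. In T cells BCL2 supports survival under IL-7, A1 and BCL-XL are induced by antigen receptor signals, and BIM removes activated cells when cytokines run out.

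The BH3 region recurs across these roles. The codons of its core are shown for the searched members in which the core letters were found, since they let the roles be read side by side. Pmaip1 was not searched, so its absence here says nothing of its BH3 region. Bcl2a1b and Bcl2a1d were searched and did not hold the core letters. Each line is a coding stretch from the GENCODE M21 transcript, 5′ to 3′, and the capitals mark the codon of the leading leucine and the codons of the small residue and aspartate that follow it.
Bcl2: CTCcgccgggctGGGGATgacttc
Bcl2l1: CTGagagaggcaGGCGATgagttt
Mcl1: CTGcggcgcgtgGGCGACggcgtg
Bcl2l11: CTGcggcggatcGGAGACgagttc
Bbc3: CTGcggcggatgGCGGACgacctc
Bax: CTCcggcgaattGGAGATgaactg
Bak1: CTTgctctcatcGGAGATgatatt
Bbc3 was the member of these 7 with an alanine codon (GCG) in place of the glycine codon before the aspartate.

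The A1 genes are near-identical copies, which bears on how reads can be shared between them. Bcl2a1b and Bcl2a1d, both on chromosome 9, differ at 6 of 519 coding bases, an identity of 98.84%, and the longest coding run without a difference has 217 bases. The first 75 coding bases are shown because they hold 2 of the differences, in capitals.
Bcl2a1b: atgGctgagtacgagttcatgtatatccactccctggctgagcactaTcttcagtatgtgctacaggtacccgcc
Bcl2a1d: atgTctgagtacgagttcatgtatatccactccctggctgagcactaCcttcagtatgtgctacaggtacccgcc
The counts of the 2 copies are therefore uncertain as single genes. Bcl2a1d took 34.7, 36.4 and 37.2% of their summed reads in the D-2HG libraries, 31.8, 37.7 and 38.5% in the L-2HG libraries, and 40.9, 33.1 and 40.8% in the control libraries.

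Library totals ran from 562627 to 5731885 counts, and L-2HG replicate 2 was the smallest. The satellite repeat genes Gm10800 and Gm10801 took 3.79 to 17.05% of counts in D-2HG, 6.71 to 24.45% in L-2HG and 0.910 to 5.35% in control libraries. Mitochondrial transcripts took 0.992 to 1.88%, 1.19 to 1.83% and 2.23 to 3.06% in the same order of groups. All 8 CD8 T cell markers were tested, with summed levels of 3359 to 3846 CPM (counts relative to TMM-scaled library totals) in D-2HG, 3242 to 4644 CPM in L-2HG and 3763 to 6117 CPM in control libraries. The 8 listed B cell markers summed to 142.5 to 152.6, 146.2 to 208.8 and 179.8 to 326.3 CPM, with none at 0 in any group. Of the 8 CD8 markers, 1 rose and 4 fell with D-2HG, and 1 rose and 1 fell with L-2HG (edgeR, adjusted p under 0.05). Of the 3 tested B cell markers, 1 fell with each. Over all tested genes, 11.8% rose and 10.5% fell with D-2HG, and 9.41% rose and 8.30% fell with L-2HG. Among dendritic cell markers, 2 were tested and 1, Zbtb46, passed as higher with L-2HG (log2 fold change 1.10, adjusted p = 0.0382 in edgeR). The other, Xcr1, did not pass and averaged 15.6 CPM in D-2HG, 10.1 CPM in L-2HG and 11.8 CPM in control libraries. The list of 6 summed to 23.7 to 39.3 CPM in D-2HG, 23.7 to 34.7 CPM in L-2HG and 15.5 to 23.2 CPM in control libraries. CD4, NK, macrophage and neutrophil lists each summed to at most 24.74 CPM, with S100a8 at 0 in D-2HG, Cd14 at 0 in L-2HG, and S100a8, Ly6g, Retnlg, Cd14 and Itgam at 0 in control libraries. The part of these markers in the results below was not tested. Control replicate 2 stood apart from controls 1 and 3, as given beside the results it touches.

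With D-2HG, Bcl2 and Bcl2l11 rose and Bcl2a1d fell against control, 3 of the 8 tested members (edgeR quasi-likelihood F test, adjusted p under 0.05). Of all 10235 genes tested, 22.3% passed the same threshold, 11.8% as higher and 10.5% as lower. With L-2HG, 0 of 8 members passed, against 17.7% of all genes (9.41% higher and 8.30% lower). For 2 of the 8 the unadjusted p was under 0.05, beside 3771 of 10235 genes. DESeq2, which tested all 10 members, called 3 with L-2HG, all lower, beside 2106 of 10282 genes. The balance of higher and lower calls over all genes moved with the scaling: 1205 of 2278 were higher with D-2HG, against 1127 of 1609 with library totals and no TMM and 903 of 2205 with DESeq2, and 963 of 1812 with L-2HG, against 994 of 1279 and 667 of 2106. Between D-2HG and L-2HG, 0 of 8 members passed, against 0.303% of all genes. There, 3 members had an unadjusted p under 0.05, beside 713 of 10235 genes, and DESeq2 called 0. The D-2HG libraries did not overlap with the controls for 5 of 8 members, 3 above (Bcl2, Bcl2l11, Pmaip1) and 2 below (Mcl1, Bcl2a1b), against 40.0% of all genes, 20.7% above and 19.3% below. The L-2HG libraries lay below the controls for 2 of 8 members (Bcl2l1, Bcl2a1b) and above for none, against 31.2% of all genes not overlapping and 14.8% below. The median log2 fold change of the 8 members was -0.10 with D-2HG, beside 0.04 over all tested genes, and -0.20 with L-2HG, beside 0.05. In a bulk sample, fewer cells of a type and less RNA per cell cannot be told apart.

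**Figure D1:**
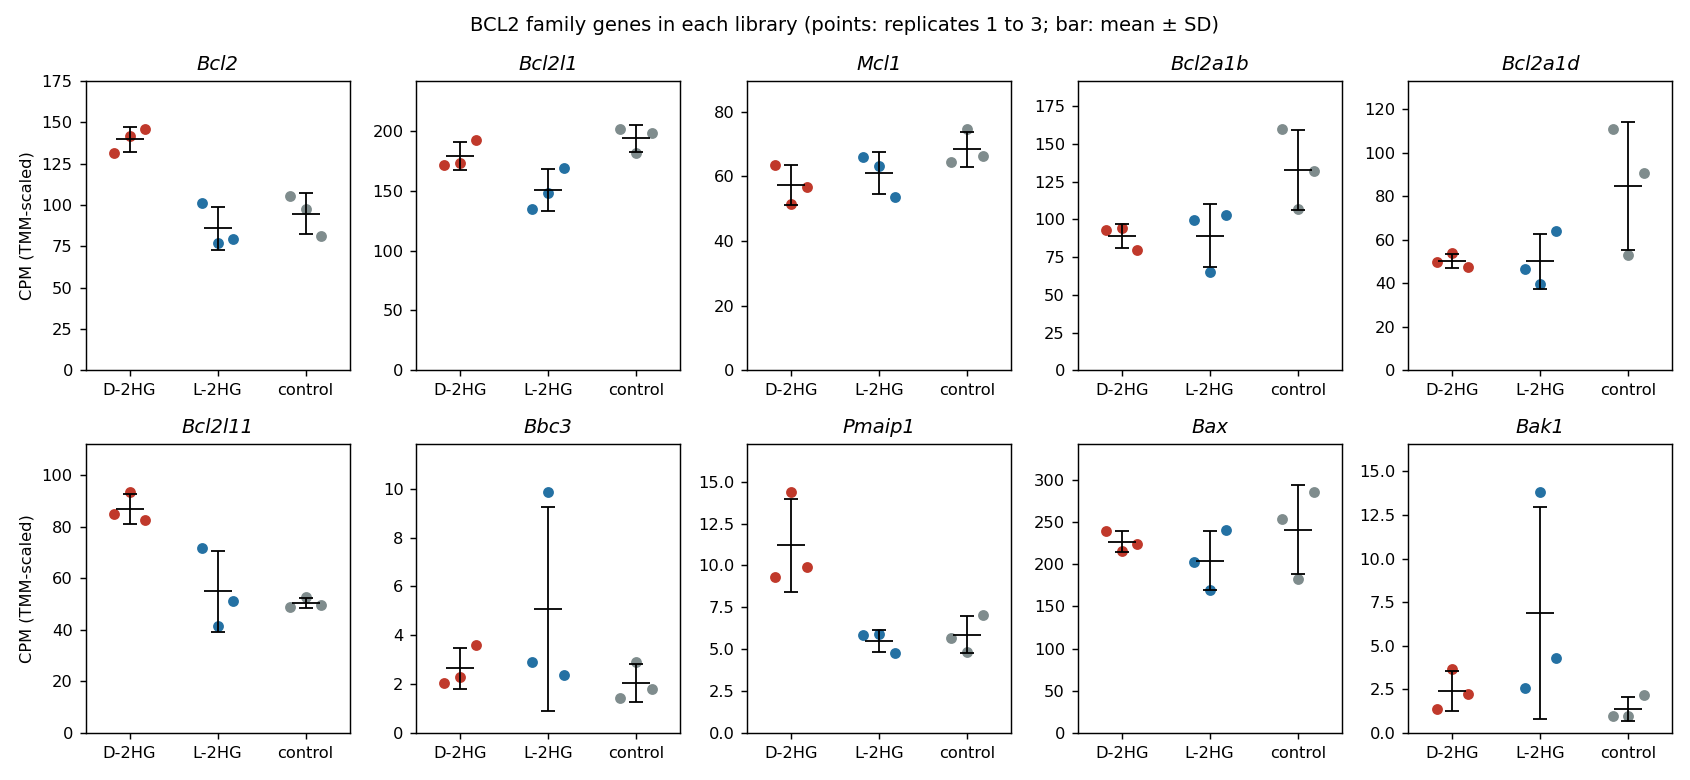
Level of each BCL2 family gene in CPM (linear axes from 0) in the D-2HG, L-2HG and control libraries. Points are replicates 1 to 3 and bars are the mean ± SD; Bcl2 and Bcl2l11 in the D-2HG libraries lie above all control libraries, and Bbc3 and Bak1 have few reads.

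Bcl2, the founding pro-survival gene, had 131, 142 and 146 CPM in the D-2HG libraries, 101, 77.0 and 79.4 CPM in the L-2HG libraries, and 106, 97.4 and 81.4 CPM in the control libraries. All D-2HG libraries were above every L-2HG and control library, and the L-2HG and control ranges overlapped. The level was 1.48-fold of control with D-2HG (log2 fold change 0.56 ± 0.19 SE, 95% interval 0.16 to 0.97, adjusted p = 0.0436 by the quasi-likelihood test). With L-2HG the log2 fold change was -0.12 (-0.54 to 0.29, adjusted p = 0.679). An antisense gene, D630008O14Rik, shares 558 exon bases with Bcl2 and had 73 counts over the 9 libraries, beside 2906 for Bcl2.

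Bcl2l11 encodes BIM, the BH3-only protein that binds all pro-survival members. It had 85.0, 93.6 and 82.6 CPM in the D-2HG libraries, 72.0, 41.5 and 51.4 CPM in the L-2HG libraries, and 49.0, 52.8 and 49.6 CPM in the control libraries. The D-2HG libraries did not overlap with either other group, and the controls were tightly placed. The level was 1.73-fold of control with D-2HG (log2 fold change 0.79 ± 0.21 SE, 0.35 to 1.23, adjusted p = 0.0165), the smallest adjusted p among the tested members. With L-2HG it was 0.18 (-0.28 to 0.64, adjusted p = 0.579).

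The promoters of the 2 genes that rose are shown, 300 bases each from RefSeq on GRCm38.p6, with the gene's strand read 5′ to 3′. BIM is a known target of FOXO factors, so the FOXO core GTAAACA was searched on both strands; it is in capitals where it was found.
Bcl2 promoter, chr1:106714241-106714540, minus strand: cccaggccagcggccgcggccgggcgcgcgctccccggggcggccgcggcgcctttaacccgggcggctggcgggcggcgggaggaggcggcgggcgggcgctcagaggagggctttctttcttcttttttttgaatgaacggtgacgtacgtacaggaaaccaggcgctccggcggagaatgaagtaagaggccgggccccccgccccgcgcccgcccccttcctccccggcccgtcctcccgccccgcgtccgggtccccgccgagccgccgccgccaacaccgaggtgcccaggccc
Bcl2l11 promoter, chr2:128125788-128126087, plus strand: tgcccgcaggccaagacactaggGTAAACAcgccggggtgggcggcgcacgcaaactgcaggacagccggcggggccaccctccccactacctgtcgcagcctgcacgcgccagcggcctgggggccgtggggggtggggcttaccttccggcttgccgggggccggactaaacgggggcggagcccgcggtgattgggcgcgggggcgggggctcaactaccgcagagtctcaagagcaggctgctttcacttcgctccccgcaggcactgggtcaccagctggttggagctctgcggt
Among the 9 members with a window, Bcl2l11 alone held the FOXO core, and 3.65% of 32851 mouse windows of this length hold it. The STAT letters TTCNNNGAA, in 8.30% of windows, were in no member's window. The NF-kB letters, GGGAA and CC with any 3 bases between, in 5.78% of windows, were in those of Bbc3 and Bak1. Only the window nearest the GENCODE start was searched for each gene, although Bcl2l1 and Bbc3 have 3 windows and Bcl2l11 has 2. The RefSeq start of the window used lay 1190 bases from the GENCODE start for Bbc3 and 382 bases for Bak1. These are matches of letters within the windows searched.

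Bcl2a1d, an antigen receptor induced pro-survival gene, had 49.5, 53.9 and 47.4 CPM in the D-2HG libraries, 46.4, 39.5 and 64.2 CPM in the L-2HG libraries, and 111, 52.8 and 90.9 CPM in the control libraries. Control replicate 2 lay within the D-2HG and L-2HG ranges, so the groups overlapped. The D-2HG level was 0.589 of control (log2 fold change -0.76 ± 0.25 SE, -1.28 to -0.25, adjusted p = 0.0348). The log2 fold change with L-2HG was -0.73 (-1.27 to -0.19, adjusted p = 0.0540). Without control replicate 2, the values were -1.02 (adjusted p = 0.000993) with D-2HG and -0.99 (adjusted p = 0.00192) with L-2HG.

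Bcl2a1b had 93.2, 94.1 and 79.9 CPM in the D-2HG libraries, 99.8, 65.1 and 103 CPM in the L-2HG libraries, and 160, 107 and 132 CPM in the control libraries. Every control library was above every 2HG library. The log2 fold change missed the threshold with D-2HG, at -0.58 (-1.02 to -0.14, adjusted p = 0.0543), and with L-2HG, at -0.54 (-0.99 to -0.08, adjusted p = 0.0823). Without control replicate 2, both passed (adjusted p = 0.00695 with D-2HG and 0.0121 with L-2HG). A further annotated gene, Gm29094, shares 401 exon bases with Bcl2a1b and had 36 counts in all, beside 3006 for Bcl2a1b.

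Since reads may be split between the copies, the counts of Bcl2a1a, Bcl2a1b, Bcl2a1c and Bcl2a1d were also summed, a choice made after seeing the data. The sum averaged 141 ± 10.98 CPM with D-2HG, 142 ± 33.7 CPM with L-2HG and 220 ± 56.7 CPM in control (SD, n = 3 each). In the edgeR test the sum fell with D-2HG (log2 fold change -0.64, -1.10 to -0.19, adjusted p = 0.0408). It was -0.61 (-1.07 to -0.15, adjusted p = 0.0590) with L-2HG.

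Mcl1, a short-lived pro-survival protein that T cells need throughout life, had 63.6, 51.4 and 56.9 CPM in the D-2HG libraries, 66.2, 63.2 and 53.8 CPM in the L-2HG libraries, and 64.4, 74.6 and 66.4 CPM in the control libraries. The D-2HG libraries were all below the controls, while the L-2HG libraries overlapped them. The log2 fold changes were -0.26 (-0.67 to 0.16, adjusted p = 0.349) with D-2HG and -0.17 (-0.60 to 0.26, adjusted p = 0.579) with L-2HG in the edgeR test. Neither difference passed.

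Bcl2l1, which encodes BCL-XL, had 172, 173 and 193 CPM in the D-2HG libraries, 135, 148 and 169 CPM in the L-2HG libraries, and 202, 181 and 199 CPM in the control libraries. The L-2HG libraries were below all others. The log2 fold change was -0.11 (-0.49 to 0.26, adjusted p = 0.661) with D-2HG and -0.36 (-0.75 to 0.02, adjusted p = 0.159) with L-2HG.

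Pmaip1 encodes NOXA, a BH3-only protein that binds MCL1 and A1. It had 9.29, 14.4 and 9.93 CPM in the D-2HG libraries, 5.85, 5.92 and 4.76 CPM in the L-2HG libraries, and 5.68, 4.85 and 7.06 CPM in the control libraries. The D-2HG libraries were above all others, from few reads: 22 to 63 counts in D-2HG, 3 to 16 in L-2HG and 10 to 39 in control libraries. The log2 fold change with D-2HG was the largest of the tested members but missed the threshold (0.92 ± 0.34 SE, 0.21 to 1.63, adjusted p = 0.0571). With L-2HG it was -0.14 (-0.98 to 0.70, adjusted p = 0.820).

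Bax, the effector, had 240, 215 and 224 CPM in the D-2HG libraries, 202, 170 and 240 CPM in the L-2HG libraries, and 254, 183 and 286 CPM in the control libraries. The 3 groups overlapped. The log2 fold changes were -0.09 (-0.51 to 0.33, adjusted p = 0.756) with D-2HG and -0.23 (-0.65 to 0.20, adjusted p = 0.425) with L-2HG.

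Bbc3, the BH3-only gene known as a p53 target, had 6, 10 and 8 counts in the D-2HG libraries, 8, 5 and 5 in the L-2HG libraries, and 6, 6 and 10 in the control libraries. Bak1, the second effector, had 4, 16 and 5 counts in the D-2HG libraries, 7, 7 and 9 in the L-2HG libraries, and 4, 2 and 12 in the control libraries. Reads spread over the exons of sensory receptor genes, which T cells are not known to use, would account for up to 50.6% of the Bbc3 reads and 35.2% of the Bak1 reads in a single library if exons of all genes drew them alike. Fitted without the filter, neither gene passed in any comparison (edgeR adjusted p from 0.241 to 0.936), and no difference was detectable at this depth. The largest of these values, for Bak1 with L-2HG against control, was 1.55 on the log2 scale (0.13 to 2.96). Ggnbp1 lies opposite Bak1 with shared exon bases and had 19 counts.

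**Figure D2:**
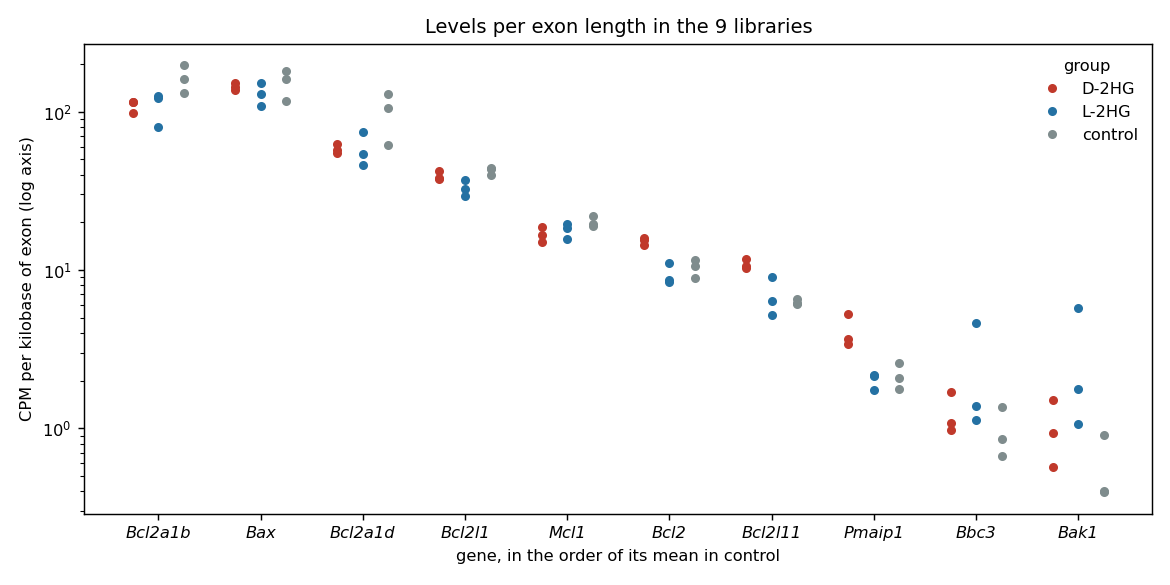
Level of each gene as CPM per kilobase of exon (log axis) in the D-2HG, L-2HG and control libraries, 3 points per group. Bax and the A1 copies are highest in each group; Bbc3 and Bak1 are lowest with D-2HG and in control, and Pmaip1 has the lowest mean with L-2HG.

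Per kilobase of exon, the order of levels in D-2HG libraries was Bax (144 ± 7.88), Bcl2a1b (109 ± 9.72), Bcl2a1d (58.3 ± 3.83), Bcl2l1 (39.1 ± 2.54), Mcl1 (16.8 ± 1.80), Bcl2 (15.3 ± 0.816), Bcl2l11 (10.8 ± 0.721), Pmaip1 (4.10 ± 1.02), Bbc3 (1.25 ± 0.394) and Bak1 (1.01 ± 0.477), as CPM per kilobase (SD, n = 3). Mcl1 and Bcl2 overlapped in that order, as did Bbc3 and Bak1. In control libraries Bcl2a1b came first, at 163 ± 32.6 CPM per kilobase, and overlapped with Bax at 153 ± 33.4, which overlapped with Bcl2a1d at 98.3 ± 34.1 (SD, n = 3). From Bcl2l1 to Pmaip1 the control order was that of D-2HG, with no overlap between neighbours. In L-2HG libraries Bax overlapped with Bcl2a1b, Bcl2 with Bcl2l11, and Bcl2l11 with Bak1, Bak1 with Bbc3, and Bbc3 with Pmaip1.

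The balance of roles within a library was described without a test. The level of Bcl2l11 over the summed pro-survival level, both per kilobase, was 0.0437, 0.0474 and 0.0453 in the D-2HG libraries, 0.0380, 0.0280 and 0.0245 in the L-2HG libraries, and 0.0153, 0.0249 and 0.0183 in the control libraries. The D-2HG libraries lay above both other groups. The A1 copies made up 70.9, 72.2 and 67.2% of the summed pro-survival level with D-2HG, 74.6, 68.0 and 76.5% with L-2HG, and 81.3, 72.7 and 78.8% in control, so this sum mostly follows the A1 genes. The ratio thus sets a gene with 8.029 kb of exon over genes with 0.817 and 0.863 kb. Fold changes of all tested genes moved with exon length, as given below, and the part of length in this ratio was not tested. Set against Bcl2 alone, Bcl2l11 stood at 0.737, 0.752 and 0.646 in the D-2HG libraries, 0.814, 0.614 and 0.738 in the L-2HG libraries, and 0.529, 0.618 and 0.694 in the control libraries, and the D-2HG and control ranges overlapped.

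**Figure D3:**
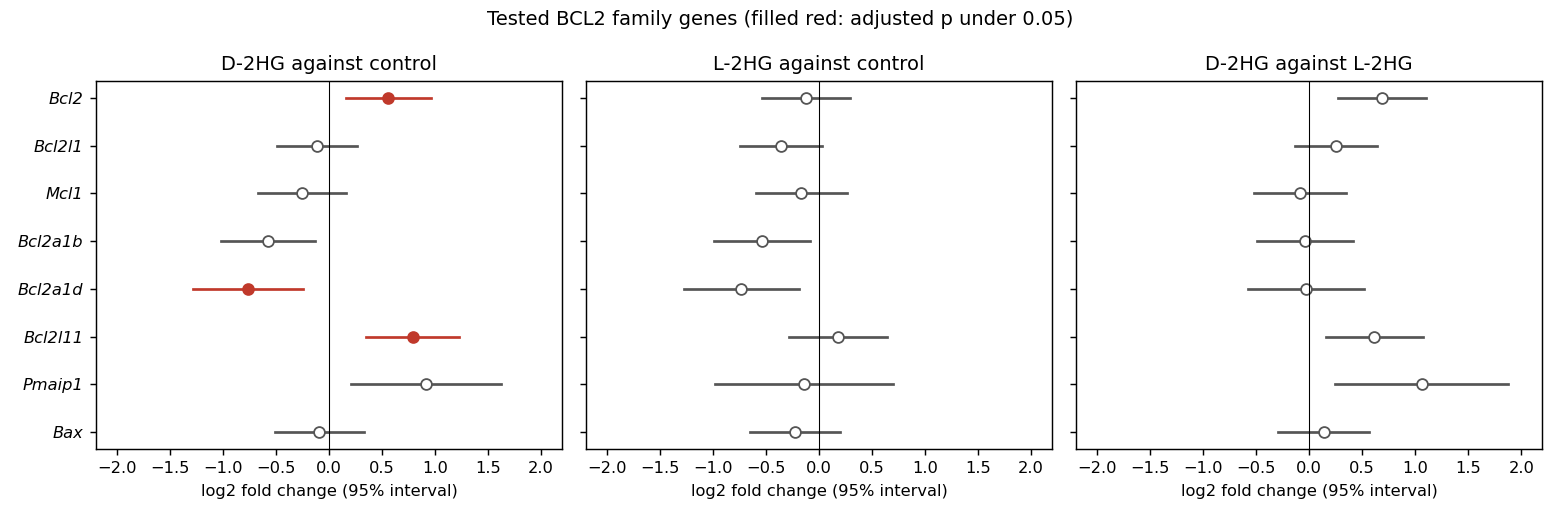
Log2 fold change with its 95% interval for the 8 tested members, with a panel each for D-2HG and L-2HG set against control and a last panel for D-2HG set against L-2HG. Filled red points passed an adjusted p of 0.05: Bcl2, Bcl2l11 and Bcl2a1d in the first panel, and no gene in the others.

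The 2 mirror-image forms were compared directly at the same dose and time, as 1 pair of compounds. With D-2HG, Bcl2 was at 1.61-fold of its L-2HG level (log2 fold change 0.69, 0.27 to 1.10), with unadjusted p = 0.00270 and adjusted p = 0.258 in the edgeR fit. Bcl2l11 differed by 0.61 (0.16 to 1.07, adjusted p = 0.488), and Pmaip1 by 1.06 (0.25 to 1.87, adjusted p = 0.522). Over all genes, 713 of 10235 had an unadjusted p under 0.05. The A1 genes were close between the forms, with differences of -0.04 (-0.50 to 0.42) for Bcl2a1b and -0.03 (-0.58 to 0.52) for Bcl2a1d. Mcl1 differed by -0.09 (-0.52 to 0.35), Bax by 0.14 (-0.29 to 0.56) and Bcl2l1 by 0.25 (-0.14 to 0.64). These intervals do not show that the forms act alike on those genes. The libraries of the 2 forms did not overlap for 4 of 8 members (Bcl2, Bcl2l1, Bcl2l11 and Pmaip1), each higher with D-2HG, against 15.9% of all genes in either direction and 7.77% higher. The comparisons of each form with control share the same control libraries.

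**Figure D4:**
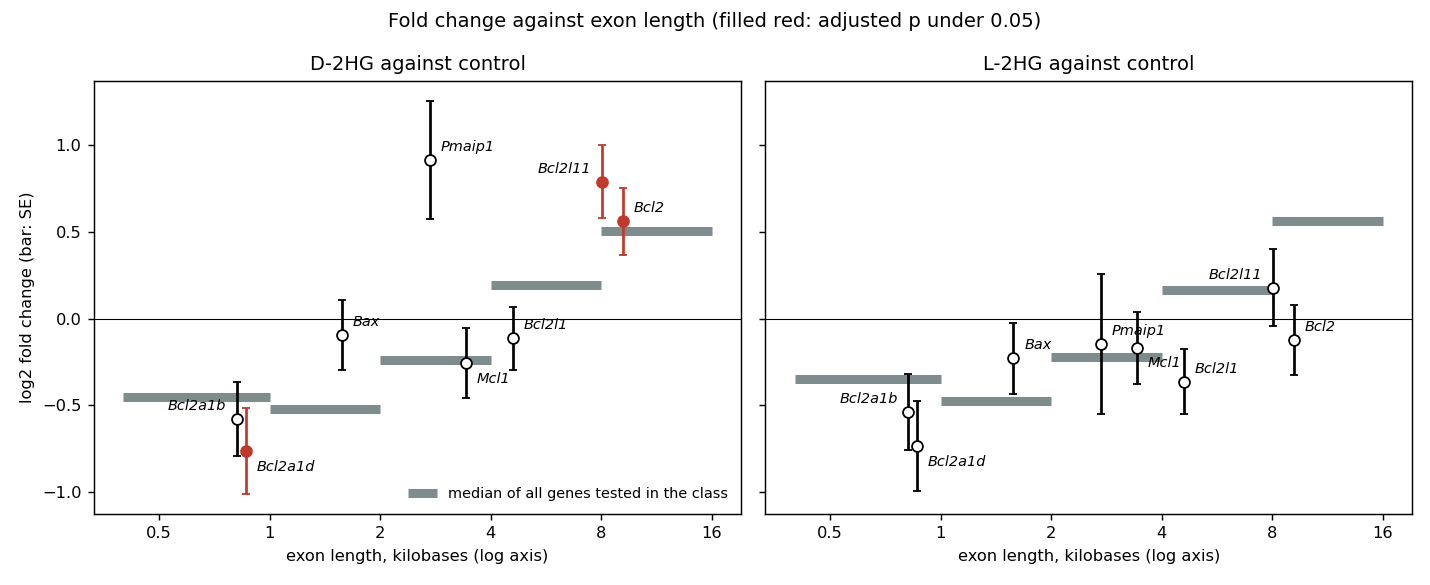
Log2 fold change (points, ± SE) of the tested members against exon length (log axis) for D-2HG and L-2HG against control; grey bars are the median over all tested genes in a length class, the shortest and longest classes being open-ended. Bcl2 and Bcl2l11 lie in the class of 8 kb or more and both A1 genes in that under 1 kb; filled red marks an adjusted p under 0.05.

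The fold changes of all tested genes moved with exon length, and the 3 called members lie at its ends. The median log2 fold change with D-2HG was -0.45 in the 477 genes under 1 kb of exon, -0.52 at 1 to 2 kb, -0.24 at 2 to 4 kb, 0.20 at 4 to 8 kb and 0.50 in the 1918 genes of 8 kb or more. With L-2HG it was -0.35, -0.48, -0.22, 0.16 and 0.56 in the same classes. Bcl2 has 9.157 kb of exon and Bcl2l11 8.029 kb, while Bcl2a1b has 0.817 kb and Bcl2a1d 0.863 kb. Between D-2HG and L-2HG the class medians lay between -0.10 and 0.05. With the length trend removed, a setting added after seeing the data, the log2 fold change with D-2HG was 0.16 for Bcl2 (adjusted p = 0.565), 0.44 for Bcl2l11 (adjusted p = 0.129) and -0.21 for Bcl2a1d (adjusted p = 0.458), and none of the 3 passed in edgeR. Pmaip1, with 2.732 kb, then passed (1.15, adjusted p = 0.0252). Between the forms, the differences of Bcl2, Bcl2l11 and Pmaip1 were then 0.68, 0.59 and 1.07. Control replicate 2 shifted by length in the same direction against controls 1 and 3, with medians of -0.45 under 1 kb and 0.39 at 8 kb or more, while its shift was 0.07 for Bcl2, 0.10 for Bcl2l11 and -0.92 for Bcl2a1d. The part of exon length in the calls was not tested beyond this fit.

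**Figure D5:**
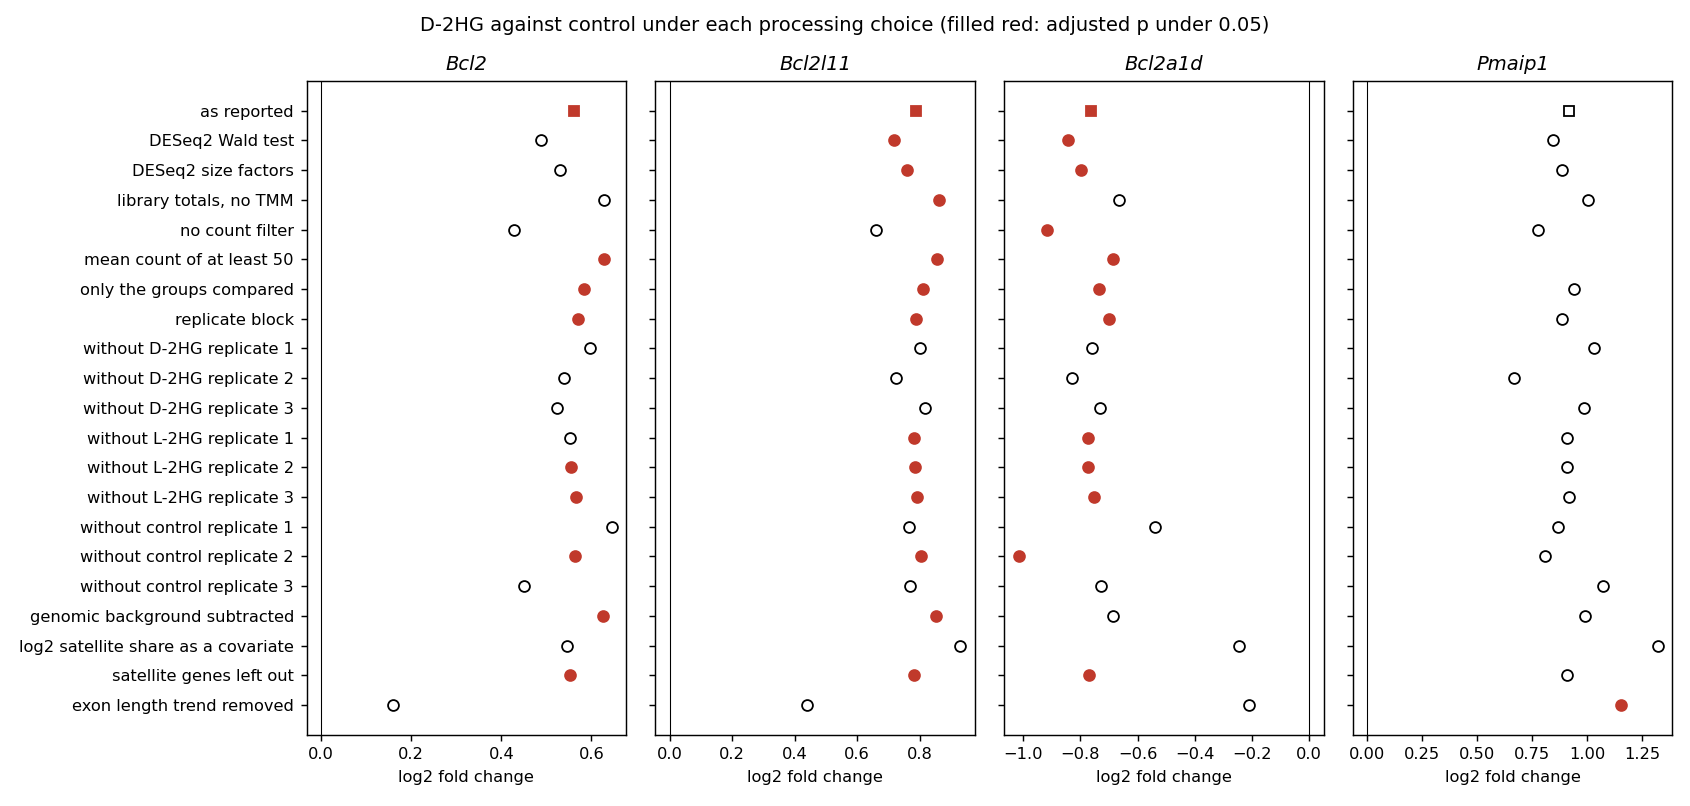
Log2 fold change of Bcl2, Bcl2l11, Bcl2a1d and Pmaip1 with D-2HG against control under each processing choice, one row per choice, with filled red for an adjusted p under 0.05. The direction holds for each gene in every row shown, and the calls do not.

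The 3 calls did not hold in several fits that left out 1 library. Without D-2HG replicate 1, 2 or 3, or without control replicate 1 or 3, none of the 3 passed, with adjusted p from 0.0795 to 0.231 for Bcl2, 0.0521 to 0.0890 for Bcl2l11 and 0.0743 to 0.190 for Bcl2a1d in edgeR. Calls over all genes in those fits numbered 384 to 1058, against 2278 with all libraries. Bcl2 also missed without L-2HG replicate 1 (adjusted p = 0.0649). With the satellite share as a covariate, the log2 fold changes were 0.55 for Bcl2, 0.93 for Bcl2l11 and -0.25 for Bcl2a1d (adjusted p = 0.334, 0.0817 and 0.782).

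Of 16 other BCL2 family genes, 7 were tested and none passed in any comparison in edgeR. Of all tested genes, 22.3% passed with D-2HG, 17.7% with L-2HG and 0.303% between the forms. An unadjusted p under 0.05 was found for 0 of the 7 with D-2HG, beside 3960 of 10235 genes, and for 1 with L-2HG, beside 3771. DESeq2 called none of them, though between the forms it gave an adjusted p for only 8609 genes, against 10282 for each form against control. They were the BH3-only genes Bid, Bad and Bik, and Bcl2l12, Bcl2l13, Bnip3 and Bnip3l. The nearest was Bnip3l, a mitophagy receptor, with a log2 fold change of 0.76 (0.14 to 1.38, adjusted p = 0.0731) with L-2HG and 0.58 (-0.02 to 1.17, adjusted p = 0.140) with D-2HG. Bcl2l12 had the largest value with D-2HG, at 0.70 (-0.17 to 1.57, adjusted p = 0.219). Bid, which links death receptors to mitochondria, was -0.20 with D-2HG and -0.38 with L-2HG.

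Of 25 tested regulators upstream of the family, 7 rose and 2 fell with D-2HG, where 11.8% of all tested genes rose and 10.5% fell, and 5 rose and 2 fell with L-2HG, where 9.41% rose and 8.30% fell. Il7r, the receptor chain for IL-7 that sustains Bcl2 in naive T cells, had 121, 138 and 143 CPM in the D-2HG libraries, 203, 229 and 209 CPM in the L-2HG libraries, and 56.8, 81.9 and 55.4 CPM in the control libraries. Both forms lay above all controls, and L-2HG above D-2HG. Il7r rose with D-2HG (log2 fold change 1.06, 0.64 to 1.48, adjusted p = 0.00313) and with L-2HG (1.73, 1.30 to 2.16, adjusted p = 0.000159), and the difference between the forms was -0.67 (-1.09 to -0.25, adjusted p = 0.285). Pim2, a kinase that inactivates BAD, fell with both, by 1.21 on the log2 scale with D-2HG (adjusted p = 0.00325) and by 0.87 with L-2HG (adjusted p = 0.0231).

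Il4ra rose with D-2HG (0.87, adjusted p = 0.00831) and with L-2HG (0.68, adjusted p = 0.0313). The STAT genes Stat5a (0.88 and 0.72) and Stat5b (0.78 and 0.93) rose with D-2HG (adjusted p = 0.0114 and 0.0227) and with L-2HG (adjusted p = 0.0332 and 0.0191). Stat3 rose with D-2HG (0.91, adjusted p = 0.0100) and was 0.63 with L-2HG (adjusted p = 0.0542). Rel, an NF-kB subunit known to drive A1, rose with L-2HG (0.87, adjusted p = 0.0216) and was 0.59 with D-2HG (adjusted p = 0.0681). Foxo1, Foxo3 and Trp53, known regulators of BIM and PUMA (log2 fold changes of -0.10, 0.15 and -0.15 with D-2HG; 0.26, 0.09 and -0.26 with L-2HG), did not pass. Il2ra, the IL-2 receptor alpha chain induced on activation, was -0.03 with D-2HG and -0.29 with L-2HG.

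Of 15 tested genes of the mitochondrial gate and of BCL2 protein turnover, 2 rose and 5 fell with D-2HG (11.8% and 10.5% of all genes), and 2 rose and 5 fell with L-2HG (9.41% and 8.30% of all genes). Capn1, which encodes a calpain, rose with D-2HG (1.41, adjusted p = 0.0111) and with L-2HG (1.93, adjusted p = 0.00557). Its reads were few: 25 to 52 counts in D-2HG, 6 to 45 in L-2HG and 11 to 24 in control libraries. Huwe1, an MCL1 ubiquitin ligase, also rose with D-2HG (0.72, adjusted p = 0.0346) and with L-2HG (0.97, adjusted p = 0.0155). Dynll1, a dynein light chain that binds BIM, fell by 1.03 with D-2HG (adjusted p = 0.00993) and by 1.06 with L-2HG (adjusted p = 0.0151), on the log2 scale. The adenine nucleotide carriers Slc25a4 and Slc25a5 fell with D-2HG (-0.93 and -0.82, adjusted p = 0.00812 and 0.0167) and with L-2HG (-0.66 and -0.85, adjusted p = 0.0412 and 0.0194). The cyclophilin gene Ppif fell with D-2HG (-0.71, adjusted p = 0.0198) and was -0.54 with L-2HG (adjusted p = 0.0640), and the channel gene Vdac3 fell with L-2HG (-0.72, adjusted p = 0.0360) and was -0.60 with D-2HG (adjusted p = 0.0510). With the length trend removed, Slc25a5 (adjusted p = 0.0769 and 0.0590) and Huwe1 (0.769 and 0.530) missed the threshold with D-2HG and with L-2HG, and Slc25a4 with L-2HG (0.159). In the same edgeR fit Vdac3 passed with D-2HG (-0.79, adjusted p = 0.0192) and Ppif with L-2HG (-0.65, adjusted p = 0.0404). The share of mitochondrial transcripts was lower in every D-2HG and L-2HG library than in every control library, as given above, and its part in these values was not tested.

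Of 20 tested apoptosome and caspase genes, 1 rose and 1 fell with D-2HG, and 0 rose and 2 fell with L-2HG, while 22.3% and 17.7% of all genes passed in the same comparisons. Birc3, a ubiquitin ligase of the inhibitor of apoptosis family, rose with D-2HG (0.56, adjusted p = 0.0394) and was 0.22 with L-2HG (adjusted p = 0.429). Cycs, cytochrome c, fell by 0.66 on the log2 scale with D-2HG (adjusted p = 0.0439) and by 0.77 with L-2HG (adjusted p = 0.0334), and Aifm1, a mitochondrial flavoprotein released in cell death, fell by 0.60 with L-2HG (adjusted p = 0.0447) and was -0.38 with D-2HG (adjusted p = 0.152). Apaf1, the scaffold of the apoptosome, was 1.03 with D-2HG (adjusted p = 0.0975) and 1.35 with L-2HG (adjusted p = 0.0560). It too had few reads, with 24 to 28 counts in D-2HG, 9 to 22 in L-2HG and 8 to 25 in control libraries. Casp9 (0.62 and 0.85) and Xiap (0.05 and 0.15) did not pass with D-2HG or with L-2HG. None of these lists had a call between D-2HG and L-2HG in edgeR, where 0.303% of all genes passed. There, 3 of the 25 regulators and none of the others had an unadjusted p under 0.05, beside 713 of 10235 genes. For the genes named here DESeq2 called none.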

How the data were processed

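RNA of 9 libraries was captured on beads, primed with oligo(dT), amplified and fragmented by Tn5, per the labels' protocols. The authors deposited raw counts by gene symbol, obtained with STAR 2.7.3a and featureCounts on mm10, per the submitters' processing notes; annotation and strand settings are not given in the sources used here. A second deposited table of signal values holds those counts over 1 factor per library (recomputed counts lay within 6.56e-05 of whole numbers) and entered no test. Exon lengths and positions came from GENCODE M21 on mm10, where 215 of 55011 symbols had no position; promoters came from RefSeq.

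The fits used edgeR 4.0.16 under R 4.3.3, with limma 3.58.1: filterByExpr (minimum count 10; 10235 genes kept), TMM, 1 model over all libraries, robust quasi-likelihood F test, Benjamini-Hochberg over all tested genes, threshold 0.05. CPM are counts over TMM-scaled totals. Intervals are 95% for single genes. The fit was tested on simulated data. DESeq2 1.42.0, other scalings and filters, a replicate block, left-out libraries, background and satellite settings were alternatives. Replicates differed by more than counting error (chi-square per degree of freedom 6.04 to 43.8). Coding stretches are longest open reading frames of the annotated coding length. The NF-kB letters were made stricter after a looser form proved common. No sequence is shown for Pmaip1.

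The text names the 10 members, every other tested BCL2 family gene, at most 5 called genes per pathway list and comparison, and 10 genes of the pathway chosen by name, of which 1 is not reported here. The members and lists were chosen with earlier results of these data known.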

Additional observations from a re-analysis of the deposited data

How the results depend on the processing

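Of the 3 members called with D-2HG, DESeq2 and DESeq2 size factors lost Bcl2 (adjusted p = 0.0558 and 0.0549) and called Bcl2a1b (0.0311 and 0.0463), and subtracting genomic background lost Bcl2a1d (0.0653). The count of members was 1 with library totals and no TMM, 1 with no count filter, 1 with the exon length trend removed and 0 with the satellite share as a covariate. With L-2HG, where 0 passed, it was 3 with DESeq2, 1 with DESeq2 size factors, 1 with no count filter and 1 with the replicate block. Over all genes, D-2HG calls numbered 2278, against 1341 with no count filter and 96 with the satellite covariate. L-2HG calls numbered 1812, against 1195 at a mean count of 50, 427 with only the groups compared, 679 with background subtracted, 8 with the satellite covariate and 1165 with the length trend removed. Calls between the forms numbered 31, against 49 with DESeq2, 76 with the satellite covariate and 54 with the length trend removed. Leaving out 1 library gave 384 to 4257 calls and 0 to 4 members with D-2HG, 65 to 4108 calls and 0 to 2 members with L-2HG, and 10 to 60 calls and 0 members between the forms. The most calls came without control replicate 2. The cause of these changes was not tested.

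With the replicate number as a block, D-2HG against control gave 2314 genes and 3 members, and Bcl2a1d passed with L-2HG (-0.74, adjusted p = 0.0390). Same-numbered D-2HG and control libraries deviated together with correlations of 0.034, -0.172 and -0.116, L-2HG and control libraries with 0.097, 0.283 and 0.123, and D-2HG and L-2HG libraries with 0.008, -0.132 and -0.153, so the numbers were not taken to pair the libraries.

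Among called pathway genes, the direction held but several calls did not. With the length trend removed, Birc3 (adjusted p = 0.0713) and Cycs (0.0682) missed with D-2HG in edgeR. With L-2HG, Cycs (0.0512), Il4ra (0.0594) and Stat5a (0.0903) missed, besides the mitochondrial gate and turnover genes given above. Over the 9 fits that leave out 1 library, Il7r passed in 9 with each form, Pim2 in 9 with D-2HG and 5 with L-2HG, Capn1 in 6 and 9, Dynll1 in 6 and 7, Stat5b in 4 and 5, Slc25a5 in 4 and 5, Huwe1 in 3 and 5, Slc25a4 in 8 and 3, Stat5a in 6 and 3, Il4ra in 8 and 2, Cycs in 3 and 5 (D-2HG, then L-2HG), Stat3 in 7, Ppif in 5 and Birc3 in 3 with D-2HG, and Rel in 6, Vdac3 in 4 and Aifm1 in 1 with L-2HG. L-2HG replicate 2 holds 562627 counts and limits low genes such as Pmaip1, which was left out at a mean count of 50.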
